A study of Mus musculus with 2 samples.

Results

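The chaperonin TRiC (also called CCT) was followed through its 8 subunit genes, Tcp1, Cct2, Cct3, Cct4, Cct5, Cct6a, Cct7 and Cct8, which were found by symbol and are 8 of the 32544 genes counted. They were measured by single-cell mRNA sequencing (scRNA-Seq) in mouse bone marrow-derived monocytes (BMDMs), which can form bone-resorbing osteoclasts (OCs). The cells were given M-CSF at 50 ng/ml together with RANKL at 100 ng/ml and were collected a day after RANKL was added. The labels give 1 library with the genotype CONTROL and 1 with LysM-Cre;Arid1afl/fl, called the control and the mutant library here. Both cultures received the same medium and cytokines. LysM-Cre is driven by the Lyz2 promoter of myeloid cells and cuts out the floxed segment of Arid1a, which encodes a component of BAF chromatin remodelers. Cells without Lyz2 expression can keep the gene. The study's methods take the marrow from the femurs of young mice a few weeks of age. Whether the control animal carried LysM-Cre, and the sex and the number of animals behind each library, were not given in the sources used here. The comparison asks whether the 8 subunit transcripts differ together between the libraries and between cell states, since Cct2 lies near the Cre locus.

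TRiC is a cytosolic chaperone built of back-to-back rings, each holding one copy of every subunit, and it folds actin, tubulin and other proteins inside its cavity with ATP. Prefoldin and phosducin-like proteins hand clients to it or act with it, and HSP70 binds many clients upstream. Within a ring, the products of Tcp1, Cct2, Cct4 and Cct5 bind ATP more strongly than those of Cct3, Cct6a, Cct7 and Cct8.

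The subunit genes lie on 8 different chromosomes of GRCm39, so they share no common locus. Cct2 (ENSMUSG00000034024) is a minus-strand gene of chromosome 10 (116886897 to 116899744) with 16 exons in the canonical transcript, and Lyz2 lies 212 kb away at 117111557 to 117118346. Cct6a (ENSMUSG00000029447, 14 exons) spans 129864049 to 129875406 of chromosome 5, and Cct7 (ENSMUSG00000030007, 12 exons) spans 85428439 to 85445708 of chromosome 6, both on the plus strand. Tcp1 is on chromosome 17, Cct3 on 3, Cct4 on 11, Cct5 on 15 and Cct8 on 16. The 250 bases before the start of the canonical transcript (GENCODE M39 on GRCm39, read in the direction of the gene) are shown for 3 members. They are Cct2 for its place near the Cre locus, Cct6a for the largest difference between the libraries, and Cct7 for the most CCAAT boxes. Capitals mark the CCAAT box (CCAAT) and the ETS motif (CCGGAAG), each searched on both strands.
Cct2, chr10:116899720-116899969, minus strand: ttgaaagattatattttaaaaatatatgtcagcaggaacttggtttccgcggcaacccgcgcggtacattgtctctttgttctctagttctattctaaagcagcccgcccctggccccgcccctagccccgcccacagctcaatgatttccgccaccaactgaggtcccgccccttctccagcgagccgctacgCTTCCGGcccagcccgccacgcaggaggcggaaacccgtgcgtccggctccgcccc
Cct6a, chr5:129863812-129864061, plus strand: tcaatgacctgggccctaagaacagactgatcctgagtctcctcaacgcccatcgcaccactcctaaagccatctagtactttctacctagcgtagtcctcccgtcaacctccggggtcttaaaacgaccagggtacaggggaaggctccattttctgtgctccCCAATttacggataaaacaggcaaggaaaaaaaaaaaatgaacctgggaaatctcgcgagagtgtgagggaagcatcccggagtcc
Cct7, chr6:85428190-85428439, plus strand: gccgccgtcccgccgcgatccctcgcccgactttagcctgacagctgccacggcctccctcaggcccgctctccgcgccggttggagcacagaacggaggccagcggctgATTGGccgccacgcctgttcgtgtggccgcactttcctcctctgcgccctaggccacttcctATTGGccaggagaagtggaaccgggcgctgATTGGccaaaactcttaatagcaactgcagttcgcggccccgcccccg
A CCAAT box was found before Tcp1, Cct6a and Cct7, 3 of 8 members, and before 36.4% of 21488 protein-coding genes. Cct7 held 3 copies, with their first bases at -140, -78 and -48 from the transcript start. The Sp1 box (GGGCGG on either strand, left in lower case) was before 4 members (Tcp1, Cct2, Cct4 and Cct7) and 36.6% of all genes, with 5 copies before Cct2. The ETS motif was before Cct2 alone among the members and before 6.90% of all genes. None of the 8 windows held a heat shock element spelled GAANNTTC (6.36% of all genes), an E-box spelled CACGTG (6.32%), a CRE spelled TGACGTCA (1.70%) or an NRF1 motif spelled GCGCATGC (2.69%). No listed motif was thus shared by all 8 windows.

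Cells with at least 500 detected genes and at most 10% mitochondrial transcripts were kept, which were 6269 control and 5663 mutant cells. Their medians were 23978 and 21734 unique molecular identifiers (UMIs, one per captured mRNA molecule) and 2.04% and 1.27% mitochondrial UMIs. The libraries shared 8 barcodes. Arid1a was counted at 51.9 counts per 1e6 UMIs (CPM) in the control library and 20.4 CPM in the mutant library, a log2 ratio of -1.35 (-1.41 to -1.28), and only 3′ ends were counted, so recombined transcripts can remain. Summed macrophage markers were at 3647 and 7803 CPM, 10 interferon-stimulated genes at 490 and 2318 CPM, and 5 neutrophil markers at 267 and 2000 CPM, in that order. Markers of stromal cells (4.45 and 11.5 CPM), T and NK cells (0.409 and 1.41 CPM), B cells (0.324 and 1.25 CPM) and erythroid cells (0.226 and 0.243 CPM) were near 0. Of these, 1 T and NK cell gene, 1 B cell gene and at least 2 erythroid genes had no UMI in each library. Csf1r, the M-CSF receptor of monocytic cells, was present at 256 and 402 CPM. The part of the macrophage transcripts in the TRiC levels was not tested. With 1 library per genotype no test was possible. Intervals in parentheses are at the 95% level and cover counting error only.

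TRiC transcripts were lower in the mutant library for every subunit. The 8 genes together reached 1943 CPM (1936 to 1950) with 317878 control UMIs and 1334 CPM (1328 to 1340) with 175393 mutant UMIs. The log2 ratio of mutant over control was -0.54 (-0.55 to -0.53). All 8 subunits were lower by at least 1.2-fold, as were 21.9% of the 5219 genes that averaged 20 CPM or more over the libraries, while 27.9% of those genes were higher by as much and no subunit was. The median log2 ratio was -0.47 over the subunits and 0.022 over all those genes. The plot of levels by library shows the pair of values for each subunit.

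**Figure D1:**
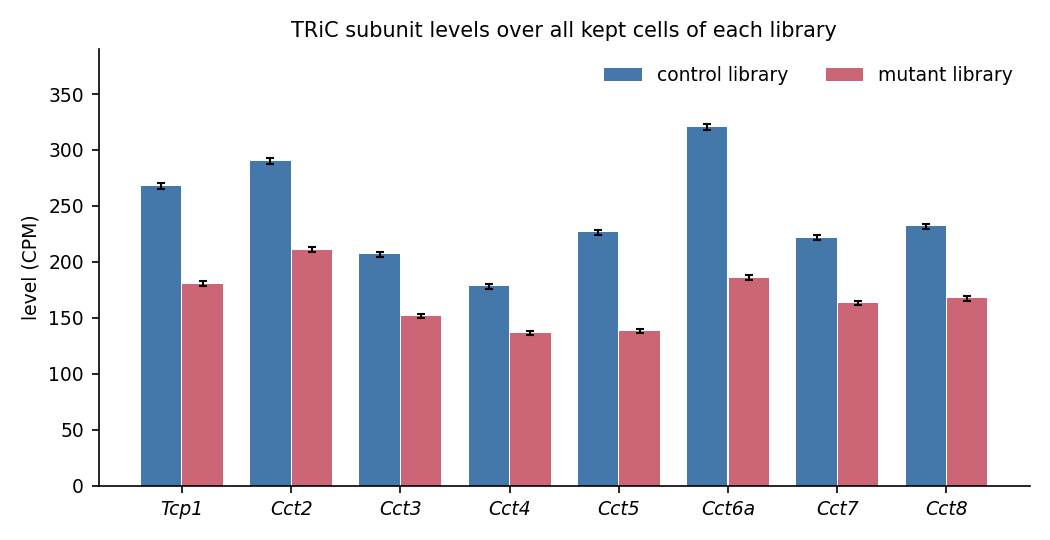
Level of each TRiC subunit in CPM (vertical axis) over all kept cells of the control library (blue) and the mutant library (red), with 95% Poisson intervals as error bars. The mutant bar is below the control bar for all 8 subunits, most for Cct6a (320.3 against 186 CPM) and least for Cct4 (178 against 136 CPM).

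Among the subunits that bind ATP strongly, Tcp1, the gene the complex is named after, was at 268 CPM in the control library and 180.5 CPM in the mutant library, a log2 ratio of -0.57 (-0.59 to -0.55). Cct2 was at 290.0 and 211 CPM, a log2 ratio of -0.46 (-0.48 to -0.44). The difference in Cct2 was therefore smaller than that in Tcp1. Cct4, whose product can also assemble into rings by itself, was at 178 and 136 CPM, with the smallest difference of the 8 at -0.39 (-0.41 to -0.36). Cct5, whose product shares that property, was at 226 and 138 CPM, a log2 ratio of -0.71 (-0.74 to -0.69). Cct4 and Cct5 thus stood far apart among the 8 ratios.

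Among the subunits that bind ATP more weakly, Cct6a was at 320.3 CPM in the control library and 186 CPM in the mutant library, a log2 ratio of -0.78 (-0.81 to -0.76) and the largest difference of the 8. It has a related gene, Cct6b, known from the testis, which had 35 and 38 UMIs in the libraries. Cct3 was at 207 and 152 CPM (log2 ratio -0.45, -0.47 to -0.42), and Cct7 at 222 and 163 CPM (-0.44, -0.46 to -0.42). Cct8 was at 232 and 167 CPM (-0.47, -0.49 to -0.45). The intervals of Cct2, Cct3, Cct7 and Cct8 overlapped one another, and those of Cct6a, Cct5, Tcp1 and Cct4 overlapped no other. Of all 5219 genes, 2.55% had a lower log2 ratio than Cct6a, 3.24% than Cct5, 6.13% than Tcp1 and 13.7% than Cct4, so each subunit was in the lower part of all genes but none was at its end.

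The mix of subunit transcripts was compared next, since it does not depend on how the libraries were scaled. Cct6a made up 16.5% of TRiC UMIs in the control library (16.4% to 16.6%) and 13.9% in the mutant library (13.8% to 14.1%), a log2 ratio of -0.29 (-0.31 to -0.26) against the other 7 subunits. The share of Cct5 was 11.7% and 10.4% (-0.19, -0.22 to -0.16). Tcp1 stayed closest to the rest, at 13.8% and 13.5% (-0.032, -0.055 to -0.0091). The other 5 subunits made up a larger share in the mutant library. Cct4 had the largest such difference, with 9.16% and 10.2% (0.17, 0.15 to 0.20), and Cct2 made up 14.9% and 15.8% (0.098, 0.076 to 0.12). The 8 subunits were thus lower together but not by 1 common factor.

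Because Cre sits in the Lyz2 locus, the genes within 1 Mb of Lyz2 were examined. Of 43 annotated genes, 7 averaged 20 CPM or more. Lyz2, lysozyme of myeloid cells and the host of the Cre insertion, was at 10803 CPM in the control library and 5432 CPM in the mutant library, a log2 ratio of -0.99. The 6 others ran from 0.17 for Cnot2, a subunit of a deadenylase complex, to -0.46 for Cct2 itself, with a median of -0.20. Rap1b, a small GTPase, was at 589 and 457 CPM (-0.37) and Mdm2, the ubiquitin ligase of p53, at 161 and 134 CPM (-0.27). Cpsf6 (-0.12) and Yeats4 (-0.059), the closest of them to Lyz2, were within 1.2-fold. Of these 6 neighbours, 3 (Cct2, Rap1b and Mdm2) were lower by at least 1.2-fold and none higher, beside 21.9% of all genes lower. Cct2 had the lowest ratio of the 6. Cct5, Cct6a and Tcp1, which lie on other chromosomes, had lower ratios than Cct2. The part of the locus in the Cct2 value was not tested.

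Cofactors of TRiC had medians closer to 0 than TRiC itself. Beside the counts of these and the following lists, 21.9% of all 5219 genes were lower by at least 1.2-fold and 27.9% were higher. Of 6 prefoldin subunits, 2 were lower by at least 1.2-fold and none higher, with a median of -0.16. Pfdn4 was at 90.1 and 68.2 CPM (-0.40) and Vbp1, the highest of them, had a ratio of 0.076. Of 3 phosducin-like cofactors, 1 was higher and none lower. That was Pdcl, at 21.6 and 27.0 CPM (0.32), and Pdcl3 was the lowest at 67.5 and 61.6 CPM (-0.13). Under each of the 3 other scalings, Pdcl was within 1.2-fold. Of 5 tubulin folding cofactors, 3 reached a mean of 20 CPM and 1 of them was lower. It was Tbca, which binds beta-tubulin, at 297 and 238 CPM (-0.32). Tbcb was the highest, at 167 CPM in both libraries (-0.0017).

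The folded products of TRiC gave a mixed picture, again beside 21.9% of all genes lower and 27.9% higher. Of the 11 actin and tubulin genes with enough counts, 4 were lower and 2 higher by at least 1.2-fold (1 higher under each of the 3 other scalings), with a median of -0.077. Tubb6, a beta-tubulin, was at 159 and 34.1 CPM (-2.22), whereas Tuba1a, an alpha-tubulin, was at 31.7 and 45.5 CPM (0.52). Among the abundant clients, Actb was at 9304 and 11577 CPM (0.32) and Actg1 at 1751 and 1380.2 CPM (-0.34), so the pair of cytoplasmic actins differed in opposite directions. Of 7 WD40-repeat and other clients with that mean, 1 was higher and 1 lower. These were Plk1, a mitotic kinase, at 29.3 and 41.1 CPM (0.49) and Ccne1, cyclin E, at 30.1 and 24.8 CPM (-0.28).

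Other chaperones were set beside TRiC, with the same shares of all genes (21.9% lower and 27.9% higher) for comparison. Of 10 cytosolic HSP70 and HSP90 genes with that mean, 7 were lower and none higher, with a median of -0.50, near that of TRiC. Hsph1, an HSP110 chaperone, was at 82.6 and 45.2 CPM (-0.87) and Hsp90ab1 at 2298 and 1281 CPM (-0.84), whereas Ahsa1, an HSP90 activator, was at 97.7 and 102 CPM (0.061). All 4 mitochondrial chaperones were lower, with a median of -0.68. Hspd1, the mitochondrial chaperonin HSP60, was at 468 and 208 CPM (-1.17), and Hspa9, the least different, at 208 and 152 CPM (-0.45). Of the 14 subunits of the proteasome core, another large ring complex, 1 was lower and 1 higher, with a median of -0.011. Psmb7 was at 241 and 196 CPM (-0.30) and Psma6 at 240.1 and 294 CPM (0.29). The ratio plot shows TRiC beside the chaperones at its left and the proteasome around 0.

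**Figure D2:**
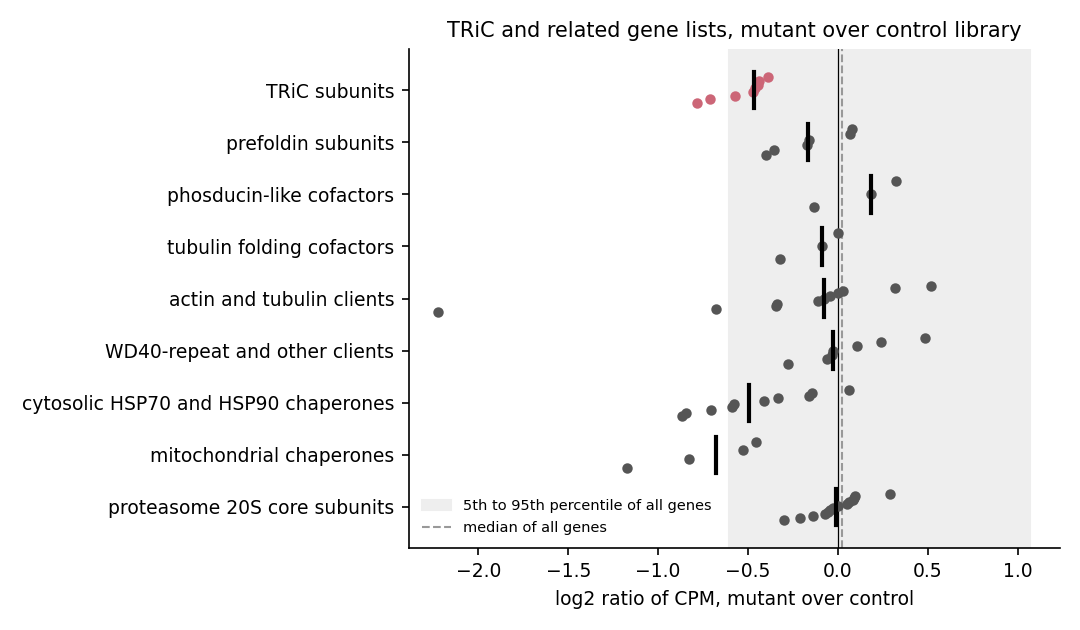
Log2 ratio of mutant over control CPM (horizontal axis) for each gene averaging 20 CPM or more in 9 gene lists, with 1 point per gene and a black bar at the median of each list. The grey band spans the 5th to 95th percentile of all 5219 genes (-0.61 to 1.07), and the TRiC points (red) lie between -0.78 and -0.39.

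Cell states were then separated within each library. Each cell was thinned at random to 5000 UMIs, which left 6101 control and 5312 mutant cells, and then gated. The cycling gate took cells whose Mki67, Top2a, Aurka and Cdk1 UMIs summed to 3 or more, and the OC gate those whose Ctsk, Mmp9, Acp5 and Dcstamp UMIs did. The first held 2458 control cells (40.3%) and 1783 mutant cells (33.6%). The second held 556 control cells (9.11%) and 178 mutant cells (3.35%). Levels within a state use all UMIs of its cells, and cells of 1 library are not replicates.

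Cycling cells held slightly more TRiC transcripts. In the control library TRiC was at 2054 CPM in cycling cells and 1854 CPM outside, a log2 ratio of 0.15 (0.14 to 0.16). In the mutant library it was at 1409.8 and 1290.4 CPM, a log2 ratio of 0.13 (0.11 to 0.14). All 8 subunits were above 0 in both libraries, but only Tcp1 was higher by at least 1.2-fold. That was 1 of 8 in the control library, where 17.3% of 5057 genes were, and 1 of 8 in the mutant library, where 15.9% of 5344 genes were. Tcp1 was at 296 CPM in cycling and 246 CPM in other control cells (0.27), and at 204 and 167 CPM in mutant cells (0.30). Cct8 was the least different in control cells, at 238 and 227 CPM (0.073), and Cct2 in mutant cells, at 216 and 208 CPM (0.050). The median was 0.14 and 0.11 over the subunits and 0.058 and 0.037 over all genes. Cycling cells were deeper, with median UMIs of 27392.5 against 22393 in the control library and 25385 against 21257 in the mutant library. Among mutant cells of 10000 to 20000 UMIs, the median was 0.022 over the subunits and 0.038 over all genes, with 5 of 8 above 0. In every other depth group of either library, the subunit median was above that of all genes.

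Phases were called after the same thinning, each at 3 or more summed UMIs. The S-phase genes were Mcm5, Mcm6, Pcna, Tyms, Slbp and Rrm2, and the G2/M genes Ccnb1, Cenpf, Cdc20, Plk1, Cenpe and Tpx2. Cells past the S-phase threshold only had 1965 CPM in the control library and 1364 CPM in the mutant library. Cells past the G2/M threshold only had 2017 and 1426 CPM, and cells past both had 2099.6 and 1459 CPM. Cells past neither, which can still hold a few such UMIs, had the lowest levels, 1792 and 1175 CPM. The ratio between libraries was between -0.50 and -0.61 in all 4 phase groups.

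OC-gate cells of the control library stood out more. TRiC was at 2429 CPM inside the OC gate and 1886 CPM outside, a log2 ratio of 0.36 (0.35 to 0.38). Of the 8 subunits, 7 were higher by at least 1.2-fold, beside 27.2% of 5064 genes, and the median was 0.29 over the subunits and 0.094 over all genes. Cct3 was at 284 and 198 CPM (0.52), Cct6a at 433 and 307 CPM (0.50) and Cct2 at 378 and 279.8 CPM (0.43). Tcp1, at 309.6 and 263 CPM (0.23), was the one below 1.2-fold. The order of the subunits was thus unlike that in cycling cells, where Tcp1 led.

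In the mutant library, TRiC was at 1446.5 CPM inside the OC gate and 1329.9 CPM outside, a log2 ratio of 0.12 (0.086 to 0.16). None of the 8 subunits was higher by 1.2-fold, beside 12.1% of 5333 genes, and the median was 0.091 over the subunits and 0.020 over all genes. Cct3 was again the highest, at 180.5 and 151 CPM (0.26), and Cct7 the lowest, at 166 and 163 CPM (0.024, -0.081 to 0.13). The intervals of Tcp1, Cct4, Cct5, Cct7 and Cct8 included 0. The mutant value rested on 178 cells and moved with the gate, from -0.028 with unthinned counts to 0.36 with at least 5 UMIs, so its direction was not settled. The control value was 0.21 and 0.40 under those settings. Among mutant cells of 10000 to 20000 UMIs, of which 37 passed the OC gate, the subunit median was -0.14 beside 0.029 over all genes. There 1 of 8 subunits was above 0. In the other depth groups of the mutant library, the subunit median was above that of all genes. The mutant minus the control value of the OC-gate ratio was -0.24 (-0.28 to -0.21) for the sum, and it was below 0 for all 8 subunits, from -0.20 for Tcp1 and Cct5 to -0.32 for Cct6a. The median over all genes was also lower in the mutant library, 0.020 against 0.094 in the control library. How many other genes had such a difference was not computed. The difference of the TRiC sum moved with the gate as well. The control and mutant ratios were 0.40 and 0.36 with at least 5 UMIs, and 0.35 in both libraries when Acp5 was left out of the gate, which then held 368 and 48 cells.

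Crossing the gates gave 4 states per library. In the control library TRiC was at 1797 CPM (1788 to 1807) in cells of neither gate, 1998 CPM (1987 to 2009) in cycling cells without OC transcripts, 2361 CPM (2329.8 to 2393) in OC-gate cells that were not cycling and 2503 CPM (2469 to 2538) in cells of both gates. In the mutant library the values were 1288 CPM (1280.4 to 1296), 1402 CPM (1391 to 1413), 1348 CPM (1307 to 1391) and 1605 CPM (1547 to 1664) in the same order. In each library the intervals of the 4 states did not overlap, although in the mutant library that of the OC gate alone ended less than 1 CPM below that of the cycling gate alone. These intervals leave out the spread between cells. At 5000 UMIs, variance over mean of TRiC UMIs per cell ran from 1.40 (control, both gates) to 2.31 (mutant, both gates), where counting alone gives 1. The order of the mutant OC gate alone and cycling gate alone was thus not settled. Every mutant state was below every control state. The OC gate alone held 317 control and 116 mutant cells, and both gates held 239 and 62.

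Cct6a was at 293, 325, 419.8 and 448 CPM in the control states (neither, cycling alone, OC alone, both) and at 182, 191, 188 and 244 CPM in the mutant states. Its ratio was the lowest of the 8 in each state, from -0.69 (-0.72 to -0.66) in cells of neither gate to -1.16 (-1.29 to -1.03) in cells of the OC gate alone. Cct2 was at 267, 296, 373 and 383 CPM in the control states and at 207, 214, 237 and 249.0 CPM in the mutant states. Its ratio ran from -0.37 (-0.39 to -0.34) in cells of neither gate to -0.65 (-0.77 to -0.53) in cells of the OC gate alone, and no state of the mutant library reached the lowest control value. Cct5 was at 213, 232, 264 and 277 CPM in the control states and at 135, 143, 129 and 175 CPM in the mutant states. Tcp1 differed more by cycling, with 242, 290.0, 279.9 and 343 CPM in the control states and 166, 204, 173 and 205 CPM in the mutant states.

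Cct3 was at 191, 207, 284 and 283 CPM in the control states and 146, 159, 162 and 209.7 CPM in the mutant states. Cct4, the least different between the libraries, was at 164, 186, 208.5 and 220.4 CPM and at 131, 145, 144 and 147 CPM. Mutant Cct4 thus differed little among the states with any gate. Cct7 was at 206, 229.6, 259.5 and 268 CPM in the control states and at 156, 175, 152 and 188 CPM in the mutant states. Cct8 was at 221, 233, 273 and 281 CPM and at 165, 171, 162 and 187 CPM. For all 8 subunits the whole interval of the ratio lay below 0 in each of the 4 states, and each was lower by at least 1.2-fold. Of all genes tested, 19% were lower by that much in cells of neither gate, 20.5% in the cycling gate alone, 31.3% in the OC gate alone and 32.2% in both gates. The median of the 8 ratios was -0.41 in cells of neither gate, -0.46 in the cycling gate alone, -0.76 in the OC gate alone and -0.60 in both, where all genes tested had medians of 0.038, 0.037, -0.0087 and -0.022. These state ratios were not recomputed under other gates, although the OC-gate ratio within each library moved with the gate. Without Acp5 that gate held 368 control and 48 mutant cells, and its ratio was 0.35 in both libraries.

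**Figure D3:**
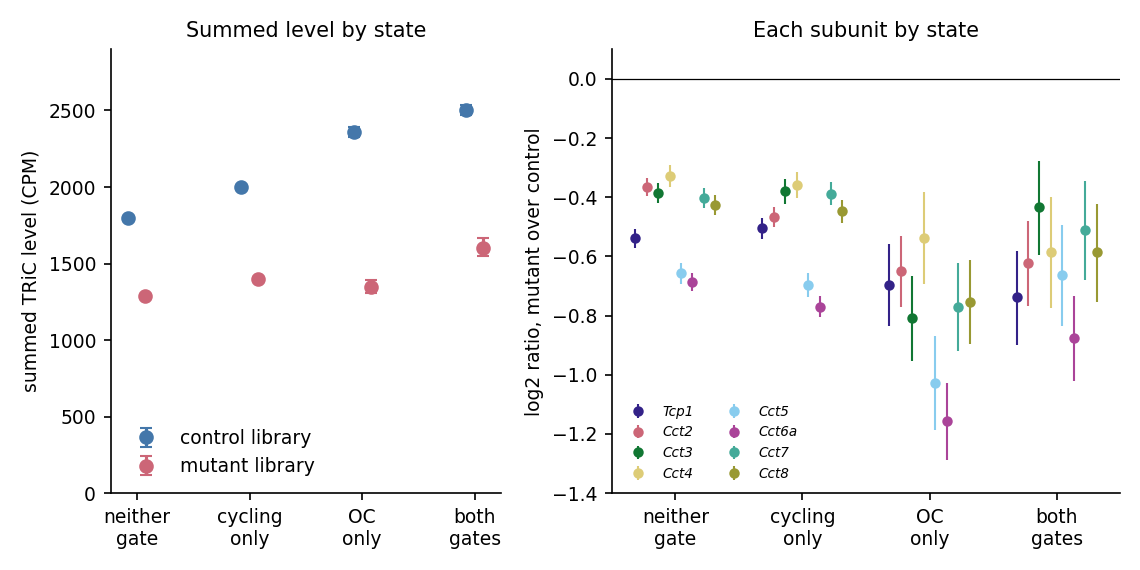
Left, summed TRiC level (CPM) in the 4 states of the control library (blue) and the mutant library (red). Right, log2 ratio of mutant over control for each subunit in each state. Bars are 95% intervals for counting error. All 32 ratios lie below 0, and Cct6a is the lowest in each state.

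Levels were also read by the number of OC transcripts per cell. In the control library TRiC was at 1867 CPM in cells without OC-gate UMIs, 1950.5 CPM with 1 to 2, 2327 CPM with 3 to 5, 2486 CPM with 6 to 10 and 2558 CPM with 11 or more. In the mutant library the values were 1329.6, 1331, 1333, 1649 and 2196 CPM. The last 2 mutant groups, with intervals of 1559 to 1743 CPM and 2044 to 2357 CPM, were above the other mutant groups. They held only 33 and 11 cells, and without them the mutant values were level. In the group of 11 or more, the ratio between libraries was -0.22 (-0.33 to -0.11). There 7 of 8 subunits were below 0, 4 of 8 were lower by at least 1.2-fold, and 3 had an interval wholly below 0. The share of all genes lower by as much was not computed in that group. With cycling-gate UMIs the levels went from 1762 to 2093 CPM in the control library and from 1234 to 1396 CPM in the mutant library between cells with 0 and with 11 or more, and the ratio stayed between -0.50 and -0.59.

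Interferon-stimulated transcripts, which were higher in the mutant library, were also counted per cell. In the control library TRiC was at 2014 CPM in cells with 0 to 2 UMIs of the 10 genes and 1579 CPM with 21 or more. In the mutant library it was at 1350.0 and 1112 CPM in the same groups. Between cells with like numbers of these UMIs the ratio was -0.58, -0.35, -0.33, -0.41 and -0.51 from the lowest to the highest of 5 groups. All 8 subunits were below 0 in each, and 8, 8, 6, 7 and 6 of them were lower by at least 1.2-fold in that order. The share of all genes lower by as much was not computed in these groups. Most control cells (4339) had 0 to 2 such UMIs and 163 mutant cells did. The difference was also present in cells of like depth, with ratios of -0.44 to -0.57 in 6 depth groups. There were 18 control and 88 mutant cells with neutrophil markers, and these had 889 and 724 CPM of TRiC, and without them and the stromal-marker cells (3 in each) the ratio over all other cells was -0.54.

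**Figure D4:**
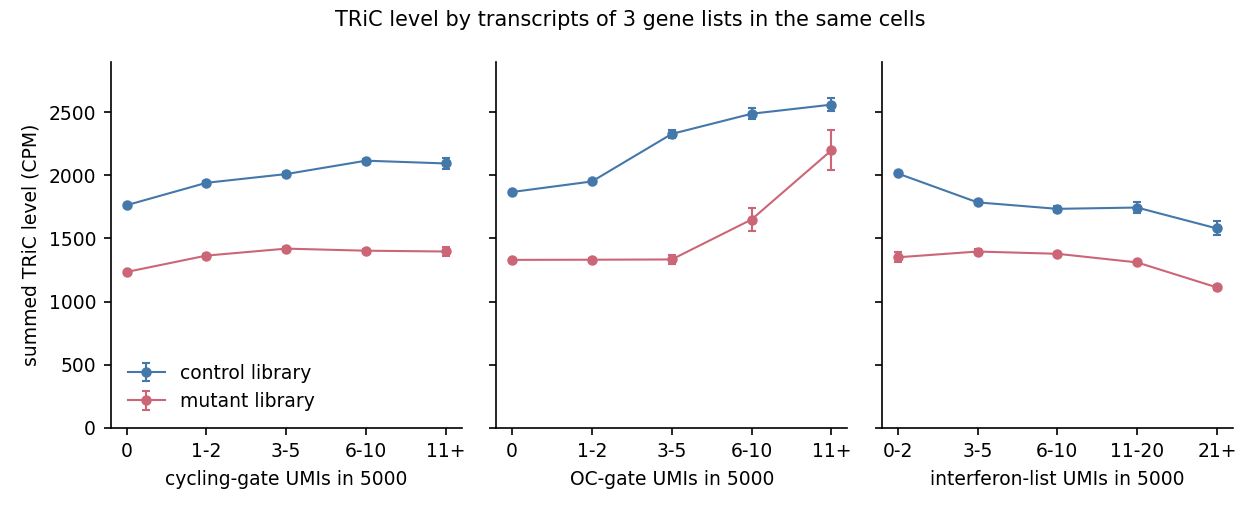
Summed TRiC level (CPM) in cells grouped by their UMIs, of 5000 drawn, over the 4 cycling-gate genes, the 4 OC-gate genes and the 10 interferon-stimulated genes, for the control library (blue) and the mutant library (red) with 95% Poisson intervals. The mutant line is below the control line in all 15 groups, and the last mutant point of the middle panel rests on 11 cells.

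Single cells were compared at 5000 UMIs. Control cells held a mean of 9.58 TRiC UMIs (SD 4.12 over 6101 cells) with a median of 9, and mutant cells a mean of 6.69 (SD 3.38 over 5312 cells) with a median of 6. The 5th and 95th percentiles were 3 and 17 in control cells and 2 and 13 in mutant cells, so the distributions overlapped widely. Variance over mean was 1.77 and 1.71, where counting alone gives 1. Between pairs of subunits, correlations over cells had medians of 0.079 and 0.072 over 28 pairs, too weak at about 1 UMI per subunit and cell to be read as a finding.

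**Figure D5:**
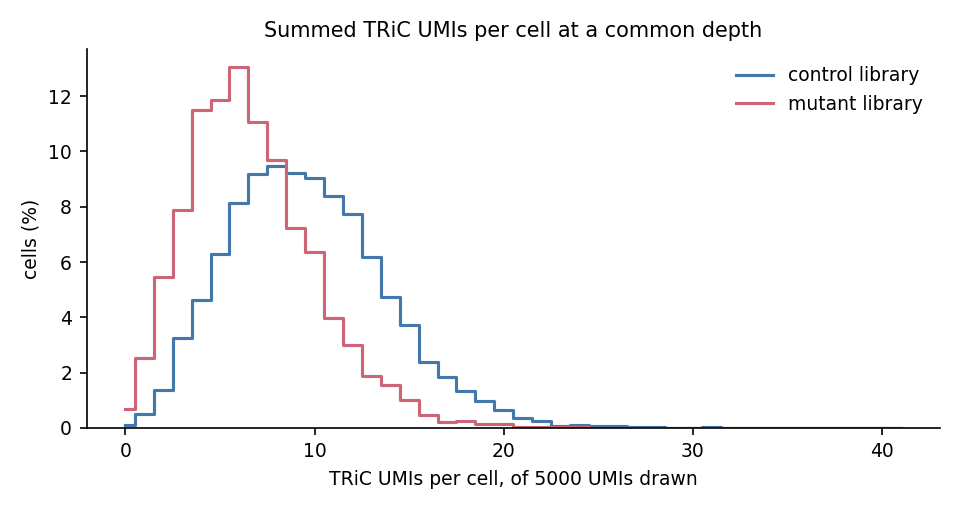
Share of cells (vertical axis, percent) with each number of TRiC UMIs among 5000 UMIs drawn per cell (horizontal axis), for 6101 control cells (blue) and 5312 mutant cells (red). Both distributions have a single peak, and the mutant median (6) is below the control median (9).

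Cells were also split by an Arid1a UMI at that depth, which 1333 control and 502 mutant cells had. TRiC was at 1954 CPM with and 1940.2 CPM without such a UMI in the control library, and at 1408 and 1327 CPM in the mutant library. In the mutant library the log2 ratios of cells with over cells without an Arid1a UMI ran from 0.018 to 0.16, all 8 above 0, with a median of 0.072 beside 0.031 over all genes tested. In the control library 4 of 8 were above 0, with a median of 0.0020 beside 0.036 over all genes. No subunit reached 1.2-fold in either library. Mutant cells with an Arid1a UMI remained lower than control cells with one for all 8 subunits, with a median of -0.43. For that comparison between libraries, the median and the share of lower genes over all genes were not computed.

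The genes most like TRiC were sought over the 8 groups of library and state, by the root mean square distance of centred log2 CPM among 2699 genes averaging 50 CPM or more. The nearest were Stoml2, a mitochondrial inner membrane protein (distance 0.036), and Emg1, a ribosomal RNA methyltransferase (0.044), followed by Tsfm, Rpl3, Rps6, Pabpc1, Rps16, Slc25a4, Mbd3 and Txnl4a up to 0.054. The subunits themselves lay at 0.056 (Cct8) to 0.15 (Cct6a) from their sum. The 8 groups span both libraries, so a gene that differed between them by a like amount ranked high, and the order changed with the random thinning. In 10 other draws, Emg1 and Pabpc1 were among the nearest 10 in 9 draws, Mbd3 and Rps16 in 7, and Stoml2 in 6. Rps6 and Txnl4a were among them in 2 draws, and Tsfm, Rpl3 and Slc25a4 in 1. Abce1 and Rpl23a, which are not among the 10 above, were there in 9 and 6 draws.

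Limits of the counting bear on Tcp1, Cct3, Cct5 and Cct8. The last exon of Tcp1 overlaps Acat3 on the opposite strand, that of Cct5 overlaps Cmbl, and that of Cct8 overlaps Usp16. Acat3 and Cmbl had at most 118 UMIs in a library, while Usp16 was at 55.7 CPM in both libraries. Whether counting used the strand was not stated. Tcp1 and Cct3 have named pseudogenes (Tcp1-ps1, Cct3-ps1) that were not in the gene table, so reads shared with them could not be told apart here.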

How the data were processed

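The authors deposited UMI counts for every gene in each barcode. They come from 10x Genomics 3′ libraries and, per the file headers, from Cell Ranger 6.1.0. GRCm39 is the build named in the submitters' processing notes. The methods name aggregation of the count matrices, but not whether the counts used here were taken before it. The members and the lists were chosen with earlier results of these data known. Named genes were all 8 members, the highest and lowest log2 ratio of each other list, genes within 1 Mb of Lyz2 and the 10 genes most like TRiC. Genes named beyond these (Actb, Actg1, Hsp90ab1, Csf1r and the overlapping genes) were chosen after their values were seen.

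There were 6455 control barcodes (164004706 UMIs) and 5865 mutant barcodes (131800059 UMIs). The filter on cells left out 186 and 202 barcodes. Doublets were kept, and removing 333 and 275 scored barcodes was an alternative. UMIs were summed over cells and divided by the total to give CPM, with exact Poisson intervals, exact conditional intervals for ratios and exact binomial (Clopper-Pearson) intervals for shares, all for counting error only. The interval of a difference of ratios was a normal approximation from the counts. With 1 library per group no p-values were computed. Alternatives changed the scaling, the weight of cells, the filters on cells, and the depth, threshold and genes of the gates. Genes with a mean under 20 CPM were left out of the medians and counts. For gates, 168 control and 351 mutant cells below 5000 UMIs were left out. Promoters were read from the GRCm39 genome with GENCODE M39, which matched 31977 of 32544 gene identifiers. Python 3.11.15, numpy 2.4.6, scipy 1.17.1 and edgeR 4.0.16 (TMM factors only) were used, and ratios, intervals and thinning were tested on simulated data.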

Additional observations from a re-analysis of the deposited data

How the results depend on the processing

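No paired analysis was possible because each genotype has 1 library, and for the same reason no library could be left out. All 8 subunits stayed lower by at least 1.2-fold under each of the 8 alternatives. For the 3 other scalings this was fixed in advance, since each moves the ratio of every gene further down. The share of all genes lower by as much was not computed under the alternatives. The summed ratio was -0.61 with TMM scaling, -0.63 with the median of ratios, -0.65 with totals without mitochondrial and ribosomal protein genes and -0.53 with every cell weighted alike. Under the first 3 of these the subunit median was -0.53, -0.55 and -0.57. The last of those totals moved the median of all genes by -0.11. Each of the first 3 scalings moves every gene by the same amount, so the summed ratio minus that median is -0.56 by construction and tests nothing. With every cell weighted alike, which is not such a shift, it was also -0.56. With those totals 4 prefoldin genes and 8 cytosolic chaperones were lower, and under the 3 other scalings 2 proteasome genes were lower and 0 higher. The ratios of Vbp1 (0.076) and Ahsa1 (0.061) were closer to 0 than that shift. The median over genes without the filter on low levels was 0.090. Cct2 against the other 7 subunits stayed between 0.097 and 0.10.

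The state values moved with the gate. In the cycling gate the control value was 0.18 with a gate at 10000 UMIs, 0.24 with unthinned counts and 0.14 without Mki67. The mutant value was 0.11 with every cell weighted alike, 0.093 at 2000 UMIs, 0.16 at 10000 UMIs, 0.22 with unthinned counts, 0.16 with at least 2 UMIs and 0.098 with at least 5. In the OC gate the control value was 0.46 with totals without mitochondrial and ribosomal protein genes, 0.39 without doublets, 0.33 at 10000 UMIs, 0.21 with unthinned counts, 0.30 with at least 2 UMIs and 0.40 with at least 5. The mutant value was 0.064 with every cell weighted alike, 0.29 at 2000 UMIs, 0.035 at 10000 UMIs, -0.028 with unthinned counts, which turned its direction, 0.029 with at least 2 UMIs, 0.36 with at least 5 and 0.35 without Acp5. A further 10 thinning draws, added after the data were seen, gave 0.13 to 0.16 for cycling in control cells, 0.11 to 0.14 in mutant cells, and for the OC gate 0.35 to 0.37 in control cells and 0.11 to 0.19 in mutant cells. The cause of these movements was not tested.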
